A study of Homo sapiens with 18 samples.

Results

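The 26S proteasome is made from a set of genes that share the symbol prefix PSM, and 48 of the 58815 genes in the counts table carried a symbol made of PSM, a letter from A to G and a number. Of these, 19 encode the barrel-shaped core (PSMA and PSMB). Another 24, called regulatory here, encode the base, its assembly chaperones, the lid and the activators (PSMC, PSMD and PSME). The last 5 encode an inhibitor and the core assembly chaperones (PSMF and PSMG). The RNA came from 3 cultured lines, LM2, BrM3 and BoM, which are lung, brain and bone metastatic variants of MDA-MB-231, an established human breast cancer line. For the brain variant the titles give BrM, and the characteristics labels name BrM2, the line from which the authors derived BrM3. Every culture carried an shRNA induced by doxycycline at 1 ug/mL for 3 days, either shCtrl or a single hairpin against WDR5 (shWDR5), with 3 libraries for each line and hairpin and 18 in all. WDR5 is a chromatin scaffold protein that takes part in histone H3 methylation and in recruitment of MYC, and the comparisons ask what its loss does to the transcripts of the proteasome in metastatic cells.

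The proteasome degrades proteins that carry ubiquitin chains. Its core is a stack of alpha rings, which close the barrel, and beta rings, in which PSMB5, PSMB6 and PSMB7 hold the peptide-cutting sites. Interferon-responsive cells replace these with PSMB8, PSMB9 and PSMB10, which gives the immunoproteasome. Caps open the barrel: a base of PSMC ATPases and a PSMD lid that removes ubiquitin, the PA28 activators (PSME1 and PSME2 together, or PSME3 alone) or PA200 (PSME4). Transcripts of the constitutive subunits are known to rise together through the factor NFE2L1.

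Total counts ranged from 17485841 to 119667013 per library, with a median of 37861544. Levels are given as CPM, the read count of a gene relative to the TMM-scaled library size. The targeted gene checked how count columns were assigned to the hairpins. WDR5 stood at 79.4 to 134 CPM in the 9 shCtrl libraries and at 14.0 to 24.4 CPM in the 9 shWDR5 libraries. The mesenchymal marker VIM (1490 to 2230 CPM) and the keratins KRT8 and KRT18 (at least 194 CPM) were high, ESR1 and PGR were under 1 CPM, and the leukocyte marker PTPRC reached at most 1.06 CPM. ERBB2 stood at 41.5 to 83.4 CPM, CDH1 at most at 0.601 CPM and EPCAM at 4.39 to 10.1 CPM, KRT19 at 24.2 to 170 CPM, the endothelial marker PECAM1 at 0.848 to 4.67 CPM and the fibroblast gene COL1A1 at 1.77 to 87.1 CPM. Libraries correlated more closely within a group (at least 0.978, Pearson's r of log2 CPM across genes) than with libraries of another line (at most 0.952). P-values measure the spread between cultures that were harvested at different passages.

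Of the 48 genes, 46 passed the filter on low counts. The testis-specific alpha subunit PSMA8 and the thymus-specific beta subunit PSMB11 had at most 1 count in any library and were not tested. Among the tested genes, 5 were counted at a low level (5.02 to 20.4 CPM on average in shCtrl) namely the alpha subunits PSMA1, PSMA2 and PSMA6, the chaperone PSMD9 and the immunoproteasome subunit PSMB10. In GENCODE release 44 these genes share 67.0%, 100%, 81.4%, 28.8% and 56.1% of the bases of their canonical transcript with another gene on the same strand that runs through them. Per kb of canonical transcript they reached 3.42 to 17.1 CPM, with a median of 5.13, against a median of 87.3 over the other 41. The overlapping genes themselves had 0 to 79 counts per library. How reads in shared exons were counted is not given in the sources used here, so the values of these 5 genes are uncertain. Counts of the other 41 are given beside the average response. PSMC1 and PSMD7 share 83.2% and 51.6% of their canonical bases with genes on the opposite strand. The library kit marks strand, but the strand setting of the counts is not given in the sources used here.

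The promoters of genes on which the results turn are shown first. RefSeq held a promoter, 250 bases before to 50 bases after the start of the gene on GRCh38.p14, for 42 of the 48 genes. Capitals mark matches on either strand to 3 motifs: TGANNNNGC, the core of the antioxidant response element to which NFE2L1 binds, CCAAT, the box bound by NF-Y, and CACGTG, the E-box of MYC. The first 4 sequences belong to genes that rose on average after WDR5 knockdown under every scaling tried, and the last to PSMB5, which did not pass the test. PSMA5 lies at chr1:109426399-109426698 (minus strand), PSMB2 at chr1:35641477-35641776 (minus), PSMC5 at chr17:63827181-63827480 (plus), PSME2 at chr14:24146561-24146860 (minus) and PSMB5 at chr14:23035171-23035470 (minus), coordinates of the promoter window.
PSMA5: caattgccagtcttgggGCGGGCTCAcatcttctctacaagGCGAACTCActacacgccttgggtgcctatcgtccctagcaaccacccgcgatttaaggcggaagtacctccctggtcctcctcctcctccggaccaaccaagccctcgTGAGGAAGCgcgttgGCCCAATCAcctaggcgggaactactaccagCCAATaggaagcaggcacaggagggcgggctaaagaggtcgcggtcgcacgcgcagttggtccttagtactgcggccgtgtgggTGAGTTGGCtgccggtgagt
PSMB2: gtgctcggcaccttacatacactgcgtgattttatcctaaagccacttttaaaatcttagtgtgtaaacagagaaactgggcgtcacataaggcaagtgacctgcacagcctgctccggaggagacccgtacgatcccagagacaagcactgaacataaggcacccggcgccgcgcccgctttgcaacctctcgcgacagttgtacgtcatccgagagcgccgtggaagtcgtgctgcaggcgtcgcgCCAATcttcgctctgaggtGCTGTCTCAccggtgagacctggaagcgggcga
PSMC5: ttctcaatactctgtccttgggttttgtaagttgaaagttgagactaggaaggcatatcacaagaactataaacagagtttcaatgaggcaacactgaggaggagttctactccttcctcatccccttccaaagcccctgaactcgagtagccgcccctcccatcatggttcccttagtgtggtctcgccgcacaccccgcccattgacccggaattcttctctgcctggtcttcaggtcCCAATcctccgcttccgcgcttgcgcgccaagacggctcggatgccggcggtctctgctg
PSME2: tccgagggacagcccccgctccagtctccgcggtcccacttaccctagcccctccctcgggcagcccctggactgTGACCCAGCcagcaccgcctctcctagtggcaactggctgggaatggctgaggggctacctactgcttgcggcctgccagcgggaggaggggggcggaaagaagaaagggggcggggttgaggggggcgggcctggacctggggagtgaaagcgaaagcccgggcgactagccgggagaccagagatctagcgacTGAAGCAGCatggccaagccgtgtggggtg
PSMB5: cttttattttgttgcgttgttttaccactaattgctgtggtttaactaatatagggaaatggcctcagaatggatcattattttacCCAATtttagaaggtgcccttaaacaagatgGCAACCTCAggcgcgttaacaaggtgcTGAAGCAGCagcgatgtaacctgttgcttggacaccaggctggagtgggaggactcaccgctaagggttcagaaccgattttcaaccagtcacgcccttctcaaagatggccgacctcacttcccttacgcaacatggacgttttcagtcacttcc

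The PSMA5 window holds 5 matches to the response element core and 2 CCAAT boxes, where a box overlaps a core match, PSMB2 holds 1 of each, PSMC5 only a CCAAT box, PSME2 2 core matches and PSMB5 2 core matches and a CCAAT box. The core motif was found in 26 of the 42 promoters (61.9%), against 42.1% of all 27305 RefSeq promoters. CCAAT was found in 19 (45.2%) against 35.7%, and CACGTG in 3 (7.14%) against 7.43%. The matches describe letters in a window, and binding was not measured.

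Before knockdown, the levels of the subunits were far from equal. Per kb of exon, PSMA7, an alpha ring subunit, was highest at 221 CPM per kb on average over the 9 shCtrl libraries, followed by PSMD2, the large scaffold of the base, at 217 and the ATPase PSMC3 at 163. PSMD2 alone made up 13.3% of all proteasome CPM. The constitutive catalytic subunits PSMB5, PSMB6 and PSMB7 stood at 155, 155 and 128 CPM per kb, and their immunoproteasome counterparts PSMB8, PSMB9 and PSMB10 at 18.5, 5.74 and 3.09. In every one of the 18 libraries the constitutive transcript exceeded its counterpart, PSMB5 over PSMB8 by 6.88 to 14.5 fold and PSMB6 over PSMB9 by 22 to 41.9 fold. With the length of the canonical transcript in place of all exons, these ratios were 3.30 to 6.95 and 11.8 to 22.4.

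Averaged over the 3 lines, 18 of the 46 tested genes were higher after WDR5 knockdown at an adjusted p under 0.05, 0 were lower and 28 did not pass (edgeR's quasi-likelihood test, Benjamini-Hochberg over 12081 genes), against 15.6% of all tested genes higher and 19.9% lower. At an unadjusted p under 0.05, in either direction, there were 20 of 46, against 5412 of all 12081 genes, a similar share. DESeq2 called 20 higher and 0 lower, against 19.7% and 19.8% of all genes. The median log2 fold change was 0.14 over the 46 genes and 0.003 over all genes, and the largest was 0.41. All 18 lie among the 41 genes without the same-strand overlap. Of the classes, 7 of 17 core genes and 10 of 24 regulatory genes were higher, with medians of 0.16 and 0.13, and the difference between these medians was not tested. Among the 13 core genes without the same-strand overlap, 7 were higher, with a median of 0.21. The sign was positive in all 3 lines for 34 of 46 genes, against 35.0% of all genes, and negative in all 3 for 5, against 33.5%. These 5 were PSMA1, PSMA2, PSMB8, PSMB9 and PSMD1.

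These counts depend on the scaling of the libraries. With library totals in place of TMM factors, an alternative chosen after seeing the data, 6 genes were higher and 3 lower (PSMA2, PSMB8 and PSMD1), against 6.29% and 29.1% of all genes, and the sign was positive in all 3 lines for 23 of 46 and negative for 10, against 19.8% and 48.3% of all genes. With each library's dependence on expression level removed, also chosen afterwards, 6 were higher and 1 lower (PSMD1), against 14.7% and 14.5% of all genes, so that the share of higher genes was near that of all genes. The sign was then positive in all 3 lines for 23 of 46, against 35.8%. Total count scaling moved the median of all genes to -0.087 on average (-0.102 in BrM3), and relative to that median the genes of the proteasome stood 0.131 higher, against 0.133 with TMM. After the expression correction they stood 0.033 higher. TMM factors were 0.994 to 1.05 in shCtrl and 0.935 to 1.01 in shWDR5 libraries. Total count scaling is the same model without these factors. Why the factors differed between the hairpins was not tested. PSMA5, PSMB2, PSMB7, PSMC5 and PSME2 remained higher under every one of 8 alternatives to the filter, model or scaling and with any library left out. Of the other 13, 6 lost the call (adjusted p 0.051 to 0.085) when a single library was left out. PSMB3 did so without BoM shCtrl replicate 1 or 3, BoM shWDR5 2 or 3, BrM3 shCtrl 1 or 3, BrM3 shWDR5 2 or 3, LM2 shCtrl 2 or LM2 shWDR5 1 or 3. PSMA3 did so without BoM shCtrl replicate 1, BoM shWDR5 2 or 3, BrM3 shCtrl 1 or 2, BrM3 shWDR5 1, LM2 shCtrl 2 or LM2 shWDR5 3. PSMD5 did so without BoM shCtrl replicate 2, BoM shWDR5 2, BrM3 shCtrl 2, LM2 shCtrl 2 or 3 or LM2 shWDR5 1. PSMD7 did so without BoM shCtrl replicate 3, BoM shWDR5 2, BrM3 shCtrl 1, BrM3 shWDR5 3, LM2 shCtrl 2 or LM2 shWDR5 3. PSMC3 lost it without BoM shWDR5 replicate 2 or BrM3 shWDR5 replicate 3, and PSMG1 without LM2 shCtrl replicate 2.

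**Figure D1:**
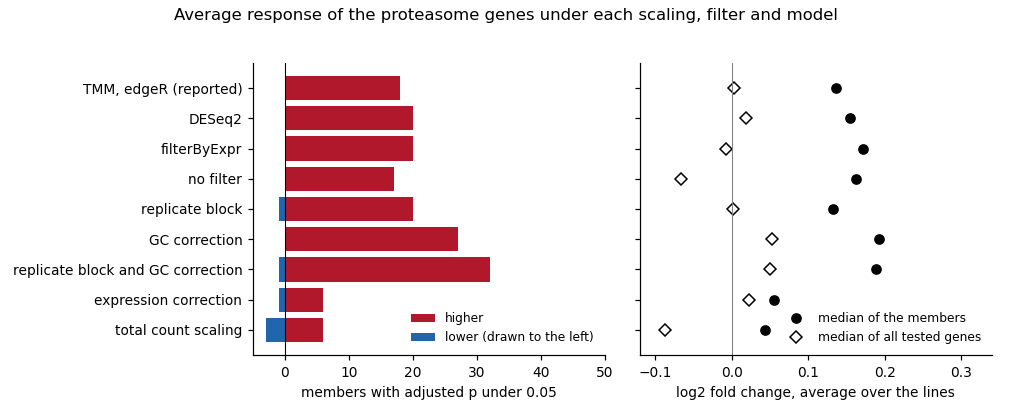
Left, number of proteasome genes with an adjusted p under 0.05 for the average over the lines, higher to the right and lower to the left, for the reported model and each alternative; right, the median log2 fold change (shWDR5 over shCtrl) of these genes and of all tested genes. The count of higher genes runs from 6 under total count scaling or the expression correction to 32 with the replicate block and GC correction, and the median of the proteasome genes lies above that of all genes in each.

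In the alpha ring, PSMA3, PSMA5 and PSMA7 were higher. PSMA5 stood at 178 to 221 CPM in LM2 shCtrl and 220 to 235 in shWDR5, at 213 to 231 and 267 to 272 in BrM3, and at 251 to 294 and 291 to 414 in BoM. The groups were apart in BrM3 and overlapped in LM2 and BoM. Averaged over the lines it rose by 0.30 on the log2 scale (standard error 0.06, adjusted p = 0.0015). PSMA7 stood at 330 to 401 CPM in LM2 shCtrl against 431 to 473 in shWDR5. The groups overlapped in BrM3 (346 to 411 and 402 to 508) and in BoM (396 to 462 and 420 to 596). The average of PSMA7 was 0.30 (standard error 0.07, adjusted p = 0.0043), but it did not pass after the expression correction. PSMA3 averaged 0.23 (adjusted p = 0.039, called in 10 of 18 fits with a library left out) and PSMA4 0.14 (adjusted p = 0.12). PSMA1, PSMA2 and PSMA6, whose counts are uncertain, had values of -0.20, -0.20 and -0.22, none of which passed.

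In the beta ring, the structural subunits PSMB1, PSMB2 and PSMB3 and the catalytic PSMB7 were higher. PSMB7, which cuts after basic residues, stood at 249 to 283 CPM in LM2 shCtrl and 288 to 321 in shWDR5, at 193 to 198 and 220 to 243 in BrM3, and at 214 to 241 and 231 to 288 in BoM. Groups were apart in LM2 and BrM3 and overlapped in BoM, and the average was 0.24 on the log2 scale (standard error 0.05, adjusted p = 0.0019). PSMB2 stood at 153 to 163 and 171 to 197 CPM in LM2, at 213 to 224 and 235 to 277 in BrM3, and at 252 to 294 and 281 to 354 in BoM. The groups overlapped in BoM alone, and the average was 0.25 (standard error 0.06, adjusted p = 0.0026). PSMB1 averaged 0.21 (adjusted p = 0.019), PSMB3 0.22 (adjusted p = 0.037, called in 7 of 18 fits with a library left out) and PSMB4 0.17 (adjusted p = 0.07).

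The other catalytic subunits did not pass the test. PSMB5, which carries the chymotrypsin-like site and is the main target of bortezomib, stood at 185 to 198 CPM in LM2 shCtrl and 186 to 206 in shWDR5, at 232 to 255 and 213 to 288 in BrM3, and at 262 to 291 and 239 to 336 in BoM. The groups overlapped in each line, and its average was 0.04 (standard error 0.07, adjusted p = 0.67). PSMB6, which cuts after acidic residues, averaged 0.16 (standard error 0.08, adjusted p = 0.12). Of the immunoproteasome, PSMB8 stood at 52.9 to 61.1 CPM in LM2 shCtrl and 50.9 to 58.7 in shWDR5, at 72.3 to 81.2 and 69.2 to 79.1 in BrM3, and at 56.7 to 61.5 and 43.2 to 58.8 in BoM. Its average was -0.11 (standard error 0.06, adjusted p = 0.20), and -0.20 (adjusted p = 0.02) under total count scaling. PSMB9 averaged -0.07 (standard error 0.09, adjusted p = 0.58) and PSMB10 0.13 (standard error 0.18, adjusted p = 0.60).

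**Figure D2:**
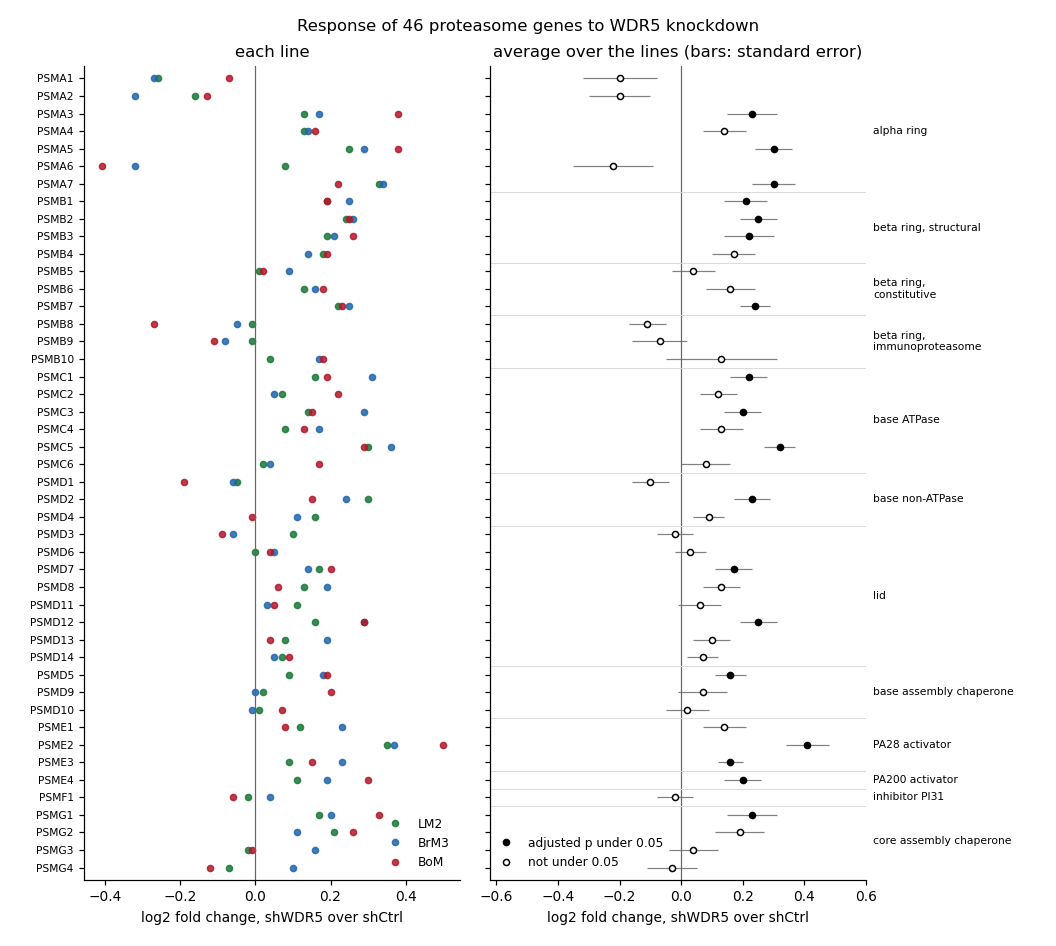
Log2 fold change of shWDR5 over shCtrl (x axis) for 46 proteasome genes ordered by role; left, each line, right, the average over the lines with its standard error, filled where the adjusted p was under 0.05. All filled points lie to the right of 0 with TMM scaling, while under total count scaling PSMA2, PSMB8 and PSMD1 passed the test to the left.

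A ratio of 2 transcripts within a library does not depend on the single factor by which that library was scaled. A trend with expression level does not cancel in it. In shCtrl, PSMB5 and PSMB6 averaged 239 and 225 CPM, and PSMB8 and PSMB9 64.4 and 19.2 CPM. The effect of the expression correction on the ratios was not tested. The 4 ratios given here join genes that form a ring together or replace each other. They were chosen with the single-gene results known, so they are given as a description and no p-value is reported for them. PSME1 over PSME2, the partners in the hybrid PA28 ring, stood at 2.7 to 2.82 per kb of exon in LM2 shCtrl and 2.23 to 2.53 in shWDR5, at 1.95 to 2.26 and 1.83 to 1.98 in BrM3, and at 2.1 to 2.16 and 1.48 to 1.68 in BoM. The groups overlapped in BrM3 alone, and the average difference was -0.26 on the log2 scale. Which partner is higher depends on the length used: per kb of canonical transcript the ratio was 1.1 to 1.15 and 0.911 to 1.03 in LM2, 0.793 to 0.922 and 0.747 to 0.807 in BrM3, and 0.854 to 0.879 and 0.601 to 0.686 in BoM. PSMB6 over PSMB9 differed by 0.22 on average and PSMB5 over PSMB8 by 0.14, both positive in 3 of 3 lines, and the latter by 0.02 in LM2 and 0.29 in BoM. PSMB7 over PSMB10, which rests on the uncertain counts of PSMB10, differed by 0.09.

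In the base, the ATPases PSMC1, PSMC3 and PSMC5 and the scaffold PSMD2 were higher. PSMC5, an ATPase of the ring that unfolds substrates, stood at 182 to 199 CPM in LM2 shCtrl and 226 to 242 in shWDR5, at 184 to 200 and 235 to 249 in BrM3, and at 236 to 273 and 267 to 348 in BoM. Groups were apart in LM2 and BrM3 and overlapped in BoM, and the average was 0.32 on the log2 scale (standard error 0.05, adjusted p = 0.00018), the smallest p among the 46 genes. PSMC1 averaged 0.22 (standard error 0.06, adjusted p = 0.0053), PSMC3 0.20 (adjusted p = 0.022) and PSMD2 0.23 (adjusted p = 0.0075). PSMC2, PSMC4 and PSMC6 had values of 0.12, 0.13 and 0.08 that did not pass. The ubiquitin receptor PSMD4 had 0.09 and PSMD1 -0.10, neither passing, and PSMD1 fell under total count scaling (-0.19, adjusted p = 0.017) and after the expression correction (-0.20, adjusted p = 0.011).

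In the lid, 2 of 8 subunits were higher. PSMD12, a structural lid subunit, stood at 139 to 164 CPM in LM2 shCtrl and 155 to 177 in shWDR5, at 159 to 160 and 175 to 231 in BrM3, and at 169 to 184 and 196 to 225 in BoM. The groups overlapped in LM2 alone, and the average was 0.25 (standard error 0.06, adjusted p = 0.0038). PSMD7 averaged 0.17 (adjusted p = 0.028, called in 12 of 18 fits with a library left out). The deubiquitinase PSMD14, which strips ubiquitin from substrates, had 0.07 (adjusted p = 0.30), and the other 5 lay between -0.02 and 0.13. Of the chaperones that assemble the base, PSMD5 was higher (0.16, adjusted p = 0.032, called in 12 of those 18), and PSMD9 and PSMD10 had 0.07 and 0.02. Of the 4 chaperones that assemble the core, PSMG1 was higher (0.23, adjusted p = 0.024), PSMG2 had 0.19 (adjusted p = 0.065), and PSMG3 and PSMG4 had 0.04 and -0.03.

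Among the activators, 3 of 4 genes were higher. PSME2 stood at 91.2 to 105 CPM in LM2 shCtrl and 114 to 136 in shWDR5, at 123 to 127 and 144 to 176 in BrM3, and at 158 to 180 and 192 to 291 in BoM. The groups were apart in each line, and the average of 0.41 on the log2 scale (standard error 0.07, adjusted p = 0.00031) was the largest among the 46 genes. Its partner PSME1 stood at 128 to 147 and 143 to 151 CPM in LM2, at 119 to 142 and 141 to 162 in BrM3, and at 169 to 189 and 160 to 231 in BoM, with an average of 0.14 (standard error 0.07, adjusted p = 0.12). The nuclear activator PSME3 averaged 0.16 (standard error 0.04, adjusted p = 0.012) and PSME4, which caps the core in nuclei, 0.20 (standard error 0.06, adjusted p = 0.012). PSMF1, the inhibitor PI31, stood at 104 to 110 and 101 to 112 CPM in LM2, at 118 to 123 and 106 to 136 in BrM3, and at 127 to 133 and 113 to 141 in BoM, with an average of -0.02 (standard error 0.06, adjusted p = 0.86).

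**Figure D3:**
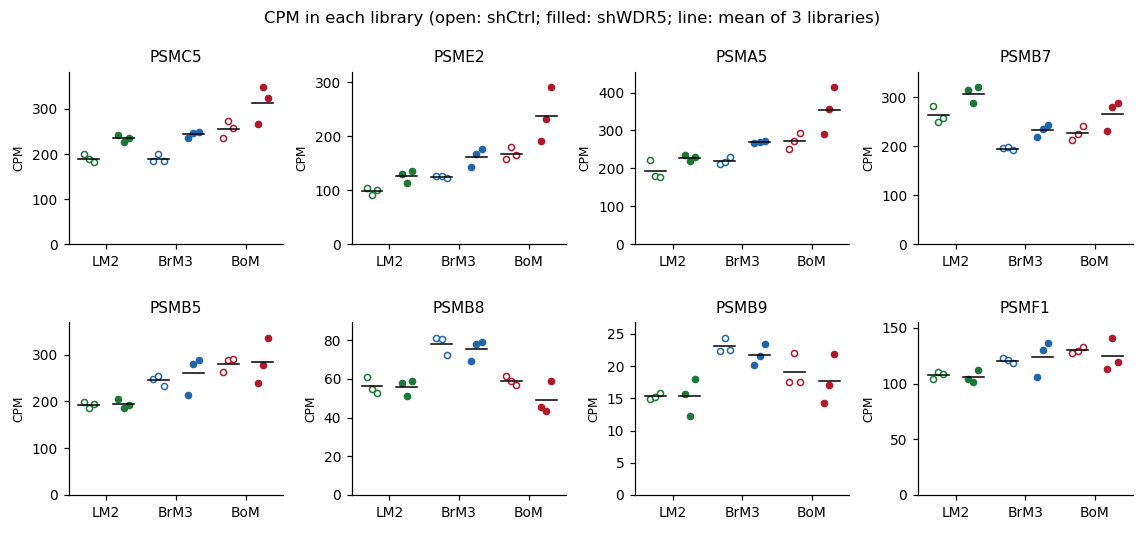
CPM of 8 proteasome genes (y axis, from 0) in each library by line, open for shCtrl and filled for shWDR5, with the mean of 3 libraries as a line. For PSME2 all filled points lie above the open points of the same line, for PSMC5 and PSMB7 this holds in LM2 and BrM3, and for PSMB5, PSMB9 and PSMF1 the groups overlap in each line.

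Summed over all 48 genes, proteasome transcripts took 7081 to 7624 CPM in LM2 shCtrl and 7953 to 8450 in shWDR5, and 7883 to 8154 and 8456 to 9526 in BrM3, with no overlap. In BoM they took 8713 to 9322 in shCtrl and 9042 to 10714 in shWDR5, and overlapped through shWDR5 replicate 1. That library was the lowest of its group for 36 of the 46 tested genes. The mean core sum was 2485 ± 116 CPM in LM2 shCtrl and 2825 ± 119 in shWDR5 (SD, n = 3 libraries), and the regulatory sum 4561 ± 168 and 5068 ± 189. In BoM the core sum was 2937 ± 204 and 3398 ± 574, and the regulatory sum 5781 ± 136 and 6342 ± 455. The size of the difference depends on the scaling: the mean sum of shWDR5 was 11.8% (LM2), 13.5% (BrM3) and 11.6% (BoM) above shCtrl with TMM, and 6.34%, 6.21% and 4.38% above it with library totals. With library totals the LM2 groups overlapped too, at 7364 to 7929 and 7905 to 8281. In bulk samples, fewer cells that express a gene and less of its RNA per cell cannot be told apart, and RNA per cell was not analysed here.

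**Figure D4:**
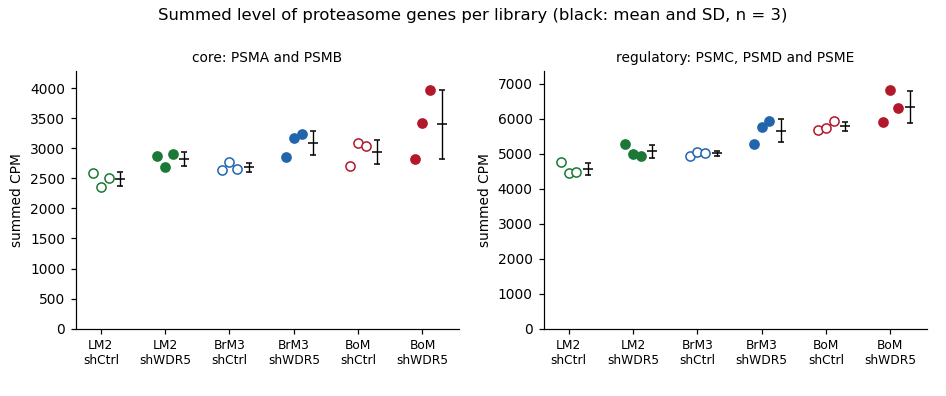
Summed CPM (y axis, from 0) of core genes (left) and regulatory genes (right) in each library, open for shCtrl and filled for shWDR5, with the mean and SD of 3 libraries in black. The regulatory sums of shWDR5 lie above those of shCtrl in LM2 and BrM3, and 1 BoM shWDR5 library lies among the BoM shCtrl libraries. With library totals in place of TMM the regulatory sums of LM2 overlap as well (4612 to 4944 and 4863 to 5179).

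Within single lines the counts of calls were 0, 2 and 4 of 46 in LM2, BrM3 and BoM. In LM2, 0 of 46 were higher or lower by edgeR, against 1.48% and 4.78% of all genes. At an unadjusted p under 0.05 there were 7 of 46, against 2429 of all 12081 genes, which is no larger a share. DESeq2 called 1 higher and 0 lower, against 3.39% and 6.07%. In BrM3, 2 were higher, PSMC5 (0.36, standard error 0.09, adjusted p = 0.016) and PSMC1 (0.31, standard error 0.10, adjusted p = 0.048), against 2.87% of all genes, and 0 were lower, against 7.87%. In BoM, 4 were higher, against 5.41%: PSME2 (0.50, standard error 0.12, adjusted p = 0.011), PSMA5 (0.38, standard error 0.11, adjusted p = 0.03), PSMC5 (0.29, standard error 0.09, adjusted p = 0.038) and PSME4 (0.30, standard error 0.10, adjusted p = 0.048). None was lower in BoM, against 10.7%. Medians over the 46 genes were 0.11, 0.16 and 0.16 in LM2, BrM3 and BoM. The shWDR5 libraries lay wholly above the shCtrl libraries for 15 genes in LM2 (10.7% of all genes), 14 in BrM3 (15.8%) and 4 in BoM (12.8%). They lay wholly below for 0 genes in LM2 (14.6%), 1 in BrM3 (PSMA2, 19.7%) and 0 in BoM (17.3%).

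Single libraries decided many of these calls. The shares of all genes in the fits with a library left out are not given here. The counts from those fits therefore show how calls moved, and are no result about the proteasome genes in particular. In BoM, 12 genes were higher without shWDR5 replicate 1, 1 without shCtrl replicate 1 or shWDR5 replicate 2, and 2 without shCtrl replicate 2 or 3, shWDR5 replicate 3 (1 higher and 1 lower) or BrM3 shCtrl replicate 1 or 3. In BrM3, 0 were called without shCtrl replicate 1 or 3 or shWDR5 replicate 3, and 7 without shWDR5 replicate 1 or BoM shWDR5 replicate 1. There were 4 in BrM3 without BoM shWDR5 replicate 3, and 1 without BrM3 shCtrl replicate 2 or shWDR5 replicate 2, any LM2 shWDR5 library, LM2 shCtrl replicate 2 or 3, or BoM shCtrl replicate 2 or 3. In LM2, 2 were called without BoM or BrM3 shWDR5 replicate 1, and 1 without BoM shWDR5 replicate 2 or 3. With each line fitted alone, 0, 4 and 0 were called in LM2, BrM3 and BoM. Under total count scaling 0, 1 and 2 were called, and after the expression correction 0, 0 and 1.

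No difference in response between lines passed the test. For BrM3 minus LM2, BoM minus LM2 and BoM minus BrM3, 0 of 46 genes passed by edgeR, against 0.00828%, 0% and 0.00828% of all genes. At an unadjusted p under 0.05 there were 0, against 2.91%, 5.17% and 2.89% of all genes, and DESeq2 called 0. The smallest unadjusted p was that of PSMB8 for BoM minus LM2, with a difference of -0.25 on the log2 scale (adjusted p = 1). The largest difference was that of PSMA6 for BoM minus LM2 (-0.50), whose counts are uncertain. Standard errors of these differences ran from 0.11 to 0.45, against median responses of 0.11 to 0.16 in the lines, so the test does not show that the lines respond alike.

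Among the shCtrl libraries, BoM carried more proteasome transcript than LM2. Of 46 genes, 28 were higher in BoM and 4 lower, against 25.9% and 25.8% of all genes, with a median log2 difference of 0.34. Regulatory genes made up 18 of the 28, out of 24 tested, and core genes 6 of 17. Of the 13 core genes without the same-strand overlap, 5 were higher. All 6 PSMC genes, the ATPases, were higher by 0.36 to 0.43. PSMD11, a lid subunit, stood at 88.9 to 130 CPM in LM2 and 182 to 221 in BoM, a difference of 0.83 (standard error 0.12, adjusted p = 3.0e-05). PSMB2 differed by 0.82 (standard error 0.10, adjusted p = 2.6e-06), PSME2 by 0.76 (adjusted p = 7.5e-05), PSMG3 by 0.67 (adjusted p = 0.00095), PSMD7 by 0.64 (adjusted p = 4.6e-05) and PSME4 by 0.59 (adjusted p = 0.00011). The catalytic PSMB5 and PSMB6 were higher by 0.54 and 0.53 and PSMF1 by 0.27 (adjusted p = 0.024). PSME1 was higher by 0.37 (adjusted p = 0.014), and PSME3 had 0.17 (adjusted p = 0.074).

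The 4 genes lower in BoM than in LM2 were PSMD5, PSMB10, PSMB7 and PSMG4. PSMD5 stood at 104 to 130 CPM in LM2 and 66.2 to 74.2 in BoM, a difference of -0.67 (standard error 0.09, adjusted p = 1.3e-05). PSMB10 stood at 5.97 to 9.13 and 2.12 to 4.63 CPM (-1.23, standard error 0.31, adjusted p = 0.0031), PSMB7 had -0.22 (adjusted p = 0.05, which lies below the threshold before rounding) and PSMG4 -0.38 (adjusted p = 0.04). PSMB8 had 0.07 (adjusted p = 0.62) and PSMB9 0.32 (adjusted p = 0.091). The other tested genes within 5 Mb on the chromosome, a window chosen after these values were seen, had a median of -0.73 around PSMD5 (44 genes) and -0.72 around PSMB7 (94 genes), both on chromosome 9. Around PSMB10 and PSMG4, the other lower genes, the medians were -0.10 and 0.16. Around the 6 PSMC genes, which lie on chromosomes 7, 11, 14, 17 and 19, the medians ran from -0.29 to 0.10. Several other higher genes lay among genes that were higher too. PSME4 had 0.59 against 0.49 around it, PSME1 0.37 against 0.38, PSMG2 0.39 against 0.45, PSMD6 0.32 against 0.32, PSMB5 0.54 against 0.38 and PSME2 0.76 against 0.37. PSMB2 had 0.82 against 0.30 and PSMD11 0.83 against 0.33, and PSMG3 and PSMD7 had 0.67 and 0.64 against 0.12 and 0.01. The part of the neighbourhood in these differences was not tested, and line and library preparation cannot be told apart.

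**Figure D5:**
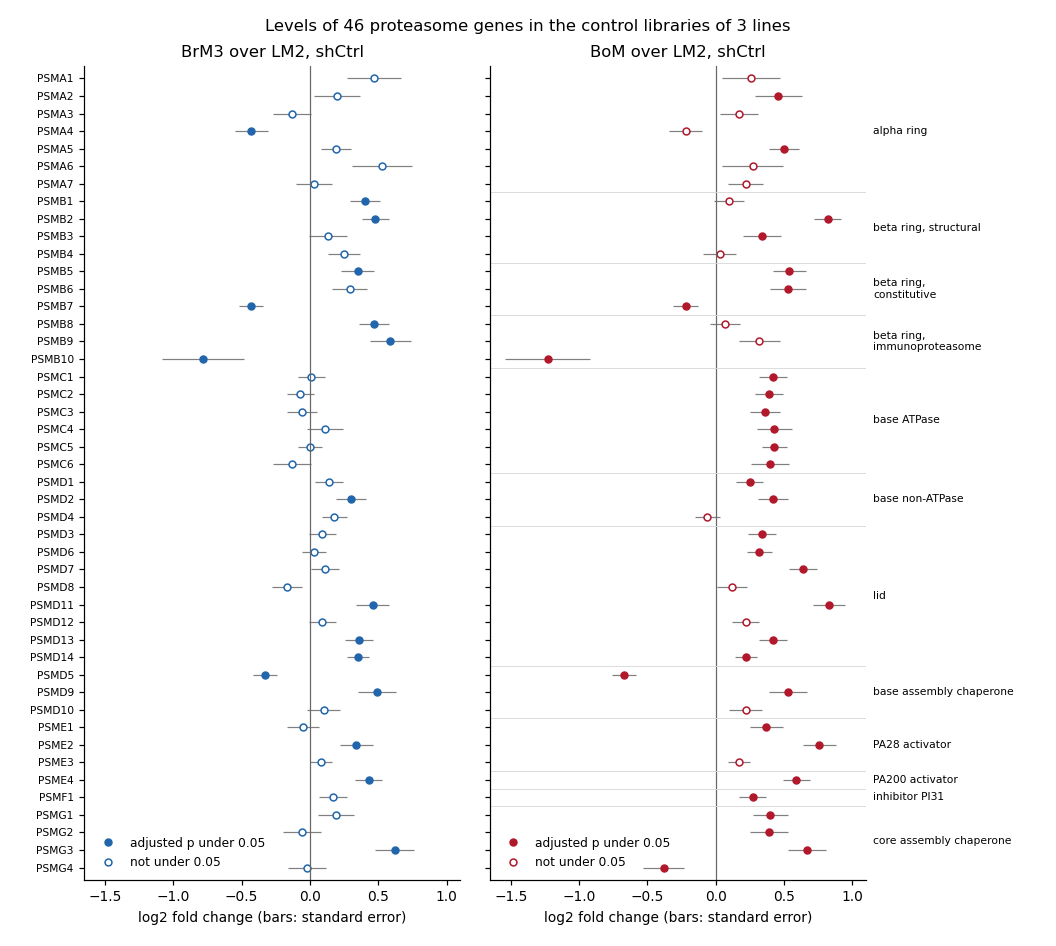
Log2 fold change of BrM3 over LM2 (left) and BoM over LM2 (right) in shCtrl libraries for 46 proteasome genes ordered by role, with standard errors and filled points where the adjusted p was under 0.05. In BoM all 6 base ATPases lie between 0.36 and 0.43, while in BrM3 they lie between -0.13 and 0.11.

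Between BrM3 and LM2, 13 genes were higher in BrM3 and 4 lower, against 24.2% and 23.4% of all genes, with a median of 0.13. Those with the smallest p were PSMB2 (0.48, adjusted p = 0.00067), PSMB7 (-0.43, adjusted p = 0.00075), PSMB8 (0.47, adjusted p = 0.002), PSME4 (0.43, adjusted p = 0.002), PSMG3 (0.62, adjusted p = 0.002), PSMD14 (0.35, adjusted p = 0.0027), PSMB9 (0.59, adjusted p = 0.004) and PSMD11 (0.46, adjusted p = 0.0054). PSMB8 stood at 72.3 to 81.2 CPM in BrM3 against 52.9 to 61.1 in LM2, and PSMB9 at 22.4 to 24.4 against 14.9 to 15.9, with no overlap. Within 5 Mb, the window used above, the other tested genes had a median of 0.47 around PSMB8 (156 genes) and around PSMB9 (155 genes). Medians were 0.45 around PSME4, -0.66 around PSMB7, 0.26 around PSMB2, 0.24 around PSMD14, 0.22 around PSMD11 and 0.02 around PSMG3. The part of the neighbourhood was not tested. PSMB5 (0.35, adjusted p = 0.024) and PSME2 (0.34, adjusted p = 0.034) were also higher and PSMB10 (-0.78, adjusted p = 0.04) lower. PSMB6, PSME1, PSME3 and PSMF1 had 0.29, -0.05, 0.08 and 0.17, which did not pass.

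Between BoM and BrM3, 14 genes were higher in BoM and 4 lower, against 17.8% and 19.8%, with a median of 0.20, and 10 were called without BoM shCtrl replicate 3. Of the 6 ATPases, 5 were among the higher genes, PSMC6 by 0.53 (adjusted p = 0.0068), PSMC2 by 0.47 (adjusted p = 0.0017), PSMC5 by 0.43 (adjusted p = 0.0014), PSMC3 by 0.42 (adjusted p = 0.0056) and PSMC1 by 0.41 (adjusted p = 0.0032). PSMD7 had the smallest p (0.53, adjusted p = 0.00051), and PSME1 and PSME2 were each higher by 0.42 (adjusted p = 0.01 and 0.013). PSMB8 was lower (-0.40, adjusted p = 0.0089), and PSMD5 had -0.34 (adjusted p = 0.0084). Tested genes within 5 Mb had medians of -0.22 around PSMB8, -0.0 around PSMD5, 0.20 around PSMD7 and 0.17 around PSME1 and PSME2. Around the 5 ATPases they ran from -0.22 to 0.10, and the part of the neighbourhood was not tested. PSMB5, PSMB6, PSMB7, PSMB9, PSMB10, PSME3, PSME4 and PSMF1 lay between -0.45 and 0.24 and did not pass. These comparisons share control libraries. By mean CPM in shCtrl, BoM was highest of the 3 lines for 33 of the 46 genes and LM2 lowest for 32.

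Genes that act with the proteasome were counted in 4 lists, chosen with earlier results known. Of 43 tested, 13 were higher and 2 lower after knockdown on average, against 15.6% and 19.9% of all genes, with a median of 0.10. Among 11 proteasome genes with other symbols, 3 were higher and 1 lower, including the scaffold ECPAS (0.25, adjusted p = 0.0044) and the activator ZFAND5 (0.22, adjusted p = 0.0077). Among 8 genes that control proteasome transcription, 1 was higher and 1 lower, a count near the share of all genes: NFYA, a subunit of the CCAAT-binding NF-Y, rose by 0.38 (standard error 0.06, adjusted p = 0.00018), and its partner NFYB had -0.18 (adjusted p = 0.031). NFE2L1 had 0.02 (adjusted p = 0.82). Among 12 genes of ubiquitin delivery, 3 were higher, with the shuttle RAD23B at 0.16 (adjusted p = 0.0099) and UFD1 at 0.17 (adjusted p = 0.016). Among 12 genes of peptide processing and presentation, 6 were higher and 0 lower, with NLRC5, the activator of class I genes, at 0.30 (adjusted p = 0.0065) and B2M, the light chain of class I molecules, at 0.27 (adjusted p = 0.0072). In single lines 1, 1 and 5 of the 43 were higher in LM2, BrM3 and BoM, against 1.48%, 2.87% and 5.41% of all genes, and 0 were lower.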

How the data were processed

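RNA was measured by stranded paired-end mRNA sequencing. Per the labels, the authors used CASAVA 1.8.2 and aligned reads to hg38 with STAR 2.7.0, and they deposited raw counts of reads per gene, without normalization. A second table holds the authors' own fold changes and p-values from DESeq2 and was not used. Spike-in RNA was added, but the counts table holds 0 rows for it, so changes in RNA per cell were not analysed here. Samples were grouped by the titles. The columns of the counts table name the arms wd and ad. The arm wd was read as shWDR5, and ad as shCtrl because it was the only other arm. Source labels that name another line were not used, so the line names rest on the titles. Libraries correlated best within the titled line, which shows that they group by title but not which line each title names.

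Counts were scaled by TMM and analysed with a quasi-likelihood model (edgeR 4.0.16, R 4.3.3; 6 groups, 18 libraries, 12 residual degrees of freedom). The filter asked for a normalized count above 146 in at least 1 library, the value among 100 at which replicates were most alike by the Jaccard index, and left 12081 genes. Adjusted p-values (Benjamini-Hochberg) cover these genes, with calls at 0.05. Total counts ranged from 17485841 to 119667013. The 18 pairs of replicates differed by more than sampling noise (chi-square per gene 5.15 to 90.6). The fit was tested on simulated counts.

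The members, lists and alternatives were chosen with earlier results of these data known. Named were, in each comparison, up to 8 called members with the smallest p, the catalytic subunits, activators and PSMF1 always, and up to 8 called pathway genes, of which 1 is not reported here. Other members were named so that each group is accounted for. Alternatives were DESeq2 1.42.0, 2 other filters, each line alone, GC and expression corrections (loess, span 0.5), total count scaling, the replicate block and leaving out each library. Coordinates are from GENCODE release 44 on GRCh38.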

Additional observations from a re-analysis of the deposited data

How the results depend on the processing

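The direction of the average response held under each alternative run, but its size and calls depended on scaling. Of 46 members, 9 were called (6 higher, 3 lower) under total count scaling, 7 (6 and 1) after the expression correction and 33 (32 and 1) with the replicate block and GC correction, against 18. Of all genes 6.29%, 14.7% and 36.9% were then higher. The median of the regulatory members moved from 0.13 to 0.04 under total count scaling and to 0.04 after the expression correction. With the replicate block, 2, 9 and 9 members were called in LM2, BrM3 and BoM (3.86%, 6.29% and 11.2% of all genes higher), and with block and GC correction 11, 22 and 22 (16.2%, 22.5% and 23.7%). GC correction alone gave 6, 14 and 9 (8.17%, 13.7% and 15.5%), and DESeq2 1, 7 and 8 (3.39%, 5.28% and 8.87%). In BrM3, filterByExpr gave 4 (2.73%), each line alone 4 (4.82%), the expression correction 0 (2.67%) and total count scaling 1 (1.19%). In BoM, each line alone gave 0 (1.61%), the expression correction 1 (5.02%) and total count scaling 2 (2.07%). Leaving out a library gave 0 to 2 calls in LM2, 0 to 7 in BrM3, 1 to 12 in BoM, 13 to 26 on average and 10 to 21 for BoM against BrM3 in shCtrl, with the shares of all genes not given. The medians on average then ran from 0.12 to 0.20 for core and from 0.10 to 0.16 for regulatory members. The causes of these shifts were not tested.

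Libraries with the same replicate number in a line deviated together in 7 of 9 pairs (correlation over 0.1), from -0.178 to 0.729, and 12 of 18 libraries correlated best with their own number. The labels do not say that a number marks a shared passage, so the block is given here alone. For 107 values of named genes, 715 of 796 alternative values and 1835 of 1926 values with a library left out stayed on the same side of the threshold in the same direction, and 0 called values reversed.

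PSMA8 and PSMB11 could not be tested, and depth was not tested as a limit for the others. CPM are shares of a library, a single hairpin was used, and the values of PSMA1, PSMA2, PSMA6, PSMB10 and PSMD9 are uncertain, since their exons are shared with another gene.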
